A study of Mus musculus with 12 samples.

Results

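Mouse podocytes that had DZNep in their medium for 48 h were compared with and without high glucose added for the same 48 h, which asks what high glucose did to gene expression in the presence of the drug. The comparison set 3 arrays of high glucose plus DZNep against 3 arrays of DZNep alone. It covered every gene detected (detection p under 0.05) on at least 3 of these 6 arrays, which was 9741 genes of the 10258 detected on at least 3 of all 12 arrays of the series. The other 6 arrays, 3 of untreated control cells and 3 of cells in high glucose without DZNep, were used to ask whether the glucose response differed when the drug was absent. All were arrays of total RNA from a cultured podocyte line, with no genetic change given in the labels. The control had no DZNep and no added high glucose. The glucose and DZNep concentrations, the osmotic control and the passage of the cells are not given in the sources used here, nor is it stated that replicates were separate cultures, so that p-values reflect only how these samples vary, which may be technical.

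Podocytes are the epithelial cells whose interlocking foot processes cover the glomerular capillaries of the kidney, and their loss is a known feature of diabetic kidney disease. DZNep is 3-deazaneplanocin A. It blocks the hydrolase that clears S-adenosylhomocysteine (AHCY), the by-product of methyl transfer, and it is used to lower EZH2, the methyltransferase of Polycomb repressive complex 2, which silences genes by methylating histone H3. Glucose itself reaches gene expression by several routes: the sugar-sensing factors MondoA and ChREBP bind carbohydrate response elements, a hyperosmotic medium acts through NFAT5, and TGF-beta signalling raises matrix genes in diabetic glomeruli.

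The best-known glucose-responsive promoter and that of the gene with the smallest p-value in this comparison are shown. A match to a form of the element that the sugar-sensing factors bind can be seen beside a promoter without that match. Txnip encodes the thioredoxin-binding protein that restrains glucose uptake, and its promoter lies at chr3:96557707-96558006 on the plus strand. Aqp1 encodes a water channel, and its promoter lies at chr6:55336049-55336348 on the plus strand. Both run 5′ to 3′ from 250 bases before to 50 bases after the gene's start in RefSeq (build GRCm38.p6), and the capitals mark the match to the carbohydrate response element.
Txnip: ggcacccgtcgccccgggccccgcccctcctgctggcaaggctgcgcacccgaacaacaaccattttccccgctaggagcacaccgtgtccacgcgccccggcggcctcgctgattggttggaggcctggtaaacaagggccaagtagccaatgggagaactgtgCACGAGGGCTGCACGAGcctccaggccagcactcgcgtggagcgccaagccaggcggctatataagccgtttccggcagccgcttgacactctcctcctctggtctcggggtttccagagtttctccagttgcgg
Aqp1: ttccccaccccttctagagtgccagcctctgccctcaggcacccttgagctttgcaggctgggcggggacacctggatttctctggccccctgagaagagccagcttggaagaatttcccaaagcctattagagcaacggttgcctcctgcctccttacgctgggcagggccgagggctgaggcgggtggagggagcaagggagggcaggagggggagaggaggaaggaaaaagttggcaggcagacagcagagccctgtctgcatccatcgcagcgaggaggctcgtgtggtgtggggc
The element searched was CACGNG, any 5 bases, and CACGNG again, on either strand. This exact form, a repeat in the same orientation as in the Txnip window, was held by 16 of 32851 promoters of this length (0.0487%). Other arrangements of the element were not searched, so a promoter without a match may hold another form. The Aqp1 window held no match to it, to the E-box CACGTG (7.15% of promoters), to the TATAAA box (13.6%) or to the tonicity-responsive enhancer that NFAT5 binds (4.96%). A match is a string of letters and not a known site. Of 15 genes with this form of the element, 8 were measured. Under DZNep 0 of these 8 passed the test, and without DZNep Txnip alone did.

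Between 38.4% and 41.3% of 45281 probes were detected per array, with a median raw signal of 133 to 151, and precision is limited by how few arrays there are. Among the 6 arrays with DZNep, correlations were 0.9948 to 0.9969 within a group and 0.9931 to 0.9957 between groups. The first principal component of these arrays (34.2% of the variance) separated the groups, with DZNep replicate 1 farthest out at -15.33. Over all 12 arrays control replicate 3 stood apart on the second component at -19.58. The podocyte genes Nphs1 (nephrin, of the slit diaphragm) and Synpo (synaptopodin, of the foot process) were detected on every array, with mean log2 levels of 11.60 and 13.43 on DZNep alone. Levels throughout are log2 intensities after background correction, to which 16 had been added, so that differences of dim genes are understated. Levels of different genes come from different probes and were not set against each other.

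High glucose moved few genes past the threshold in the presence of DZNep. With limma's moderated test and Benjamini-Hochberg adjustment over all 9741 genes, 9 genes passed an adjusted p under 0.05 (0.0924% of those tested), 4 of them higher (0.0411%) and 5 lower (0.0513%). The genes that rose were Aqp1, Inmt, Tgfbi and Cxxc5, and those that fell were Cdh26, Hba-a1, Ctsw, Ms4a10 and Matn4. At an unadjusted p under 0.05 there were 1009 genes, 375 higher (3.85%) and 634 lower (6.51%). No array values overlapped between the groups for 1876 genes (19.3%), and of these 747 stood apart higher (7.67%) and 1129 lower (11.6%). The median change over all genes was -0.018 on the log2 scale with an SD of 0.161 over genes, and a gene's median standard error was 0.097. Among genes detected in both groups, 2 had a fitted change of at least 2-fold, Slco4a1 and Aqp1, of which Aqp1 passed. When each array was instead centred on its median, 8 genes were called higher and 2 lower, and the authors' processed values gave 6 higher and 3 lower. At an unadjusted p under 0.05 in limma, median centring gave 567 higher and 169 lower, and the authors' values 571 and 415. Which direction held more genes thus depended on the processing. The shares of all genes given beside the lists below are those of the main fit. The count rested on single arrays: it was 22 without control replicate 3, 4 without high glucose replicate 2, 2 without DZNep replicate 1, and 1, 4 and 2 without replicate 1, 2 and 3 of high glucose plus DZNep. Fitted on the 6 arrays with DZNep alone, limma called 0 genes, with a smallest adjusted p of 0.0529 and 1218 genes at an unadjusted p under 0.05.

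**Figure D1:**
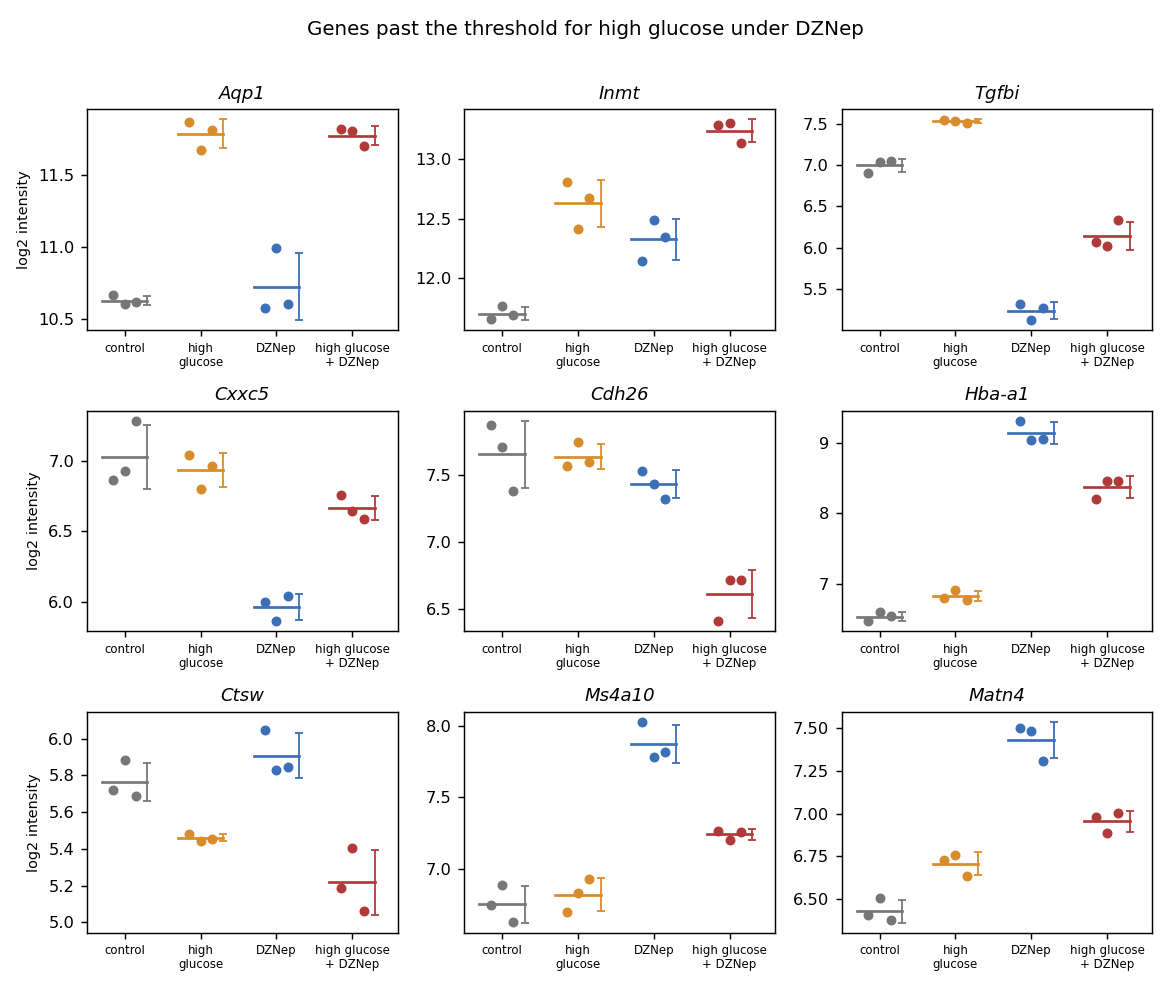
Log2 intensity of the 9 genes that passed for high glucose under DZNep, on each of the 12 arrays. Points are arrays, the line is the group mean and the bar beside it the SD (n = 3). In all 9 panels the blue points (DZNep) and the red points (high glucose plus DZNep) do not overlap.

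Aqp1, on chromosome 6, is the water channel of water-permeable epithelia such as the proximal tubule. On the DZNep arrays it lay at 10.58, 10.99 and 10.61, and on the arrays of high glucose plus DZNep at 11.82, 11.81 and 11.70. Every array with glucose lay above every array without it, with DZNep replicate 2 the highest of the lower group. Aqp1 rose by 1.05 in log2 units, or 2.07-fold, with an SE of 0.103 from 3 arrays a group (adjusted p = 0.00211). Its other probes gave 1.10 and 1.05. Without the drug the control arrays lay at 10.66, 10.60 and 10.62 and the high glucose arrays at 11.87, 11.68 and 11.81, a rise of 1.16 (adjusted p = 0.00149). The difference between these glucose effects was -0.11, with a 95% interval from -0.43 to 0.21. Of 22 alternative settings (other filters, background corrections and scalings, or 1 array left out) Aqp1 passed in 21, the exception being the fit of the 6 arrays alone (adjusted p = 0.0529).

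Inmt encodes the enzyme that methylates tryptamine and related amines with S-adenosylmethionine as the donor. Its level was 12.15, 12.49 and 12.35 with DZNep and 13.28, 13.30 and 13.13 with glucose added. The groups stood apart by more than the spread in either. Inmt rose by 0.91 (SE 0.109, adjusted p = 0.0110), and its other probe gave 1.01. The rise without DZNep was 0.92 (adjusted p = 0.00534), from 11.66, 11.77 and 11.69 in the control to 12.80, 12.42 and 12.67. The glucose effects with and without the drug differed by -0.016 (95% interval -0.35 to 0.32). DZNep arrays also lay above the control by 0.62, so that the arrays with both agents had the highest Inmt of the 4 groups. The call was lost in 5 of 22 alternatives, among them those without DZNep replicate 1 and without replicate 1 or 2 of high glucose plus DZNep, with an adjusted p of at most 0.0699 and a change of 0.82 to 0.99 in all 22.

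Inmt and Aqp1 are near neighbours on chromosome 6. In the order of protein-coding genes in RefSeq they stood 2 places apart, with Mindy4 between them, and no other pair among the 9 genes stood within 5 places. The neighbours that were measured were close to 0: Gars, a glycyl-tRNA synthetase gene, at -0.029, Nod1, an intracellular sensor of bacterial peptides, at 0.014, and Ggct, of glutathione breakdown, at 0.17. Mindy4 and Crhr2 were not among the genes kept.

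Tgfbi, on chromosome 13, encodes a secreted matrix protein named for its induction by TGF-beta. It was not well above background on any of the DZNep arrays, at 5.32, 5.12 and 5.28, and was detected on all 3 arrays of high glucose plus DZNep, at 6.07, 6.02 and 6.34. Against the lowest signal of detected probes it was at least 1.64-fold higher with glucose. The adjusted p of 0.00211 belongs to limma's fitted change and not to this bound, as for every bound given below. Without DZNep Tgfbi was brighter throughout, at 6.91, 7.04 and 7.04 in the control and 7.55, 7.54 and 7.51 in high glucose, a rise of 0.54 (adjusted p = 0.0398) that passed in 5 of 17 alternatives, with an adjusted p of up to 0.137 when 1 array was left out. With high glucose the DZNep-treated cells still lay below the untreated control on every array. Tgfbi entered the comparison only through the group in which it was high, a pattern shared by 9 genes, of which Tgfbi alone passed. The fitted change, which has no exact size for a gene below background in 1 group, ran from 0.31 without background correction to 1.55 with the authors' processed values. It passed in 17 of the 18 alternatives in which it could be tested, the exception being the 6 arrays alone (adjusted p = 0.0529).

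Of 25 measured genes of TGF-beta signalling, Tgfbi was the only member that passed. The list's median was 0.027 against -0.018 over all genes, and 3 members stood apart higher and 3 lower, beside 7.67% and 11.6% of all genes. The ligands Tgfb1, Tgfb2 and Tgfb3 changed by -0.055, -0.22 and -0.35, the receptors Tgfbr1 and Tgfbr2 by -0.022 and -0.052, and the signal carriers Smad2 and Smad3 by 0.030 and 0.039, none of which passed. Genes on the list that respond to SMAD signals did not share a direction. Id1, Id2 and Id3 were at 0.062, -0.11 and 0.32. Inhba (a subunit of activins) was at 0.20, Skil (a brake on SMADs) at 0.13, Ccn2 (connective tissue growth factor) at -0.035 and Pmepa1 at -0.042. Ltbp4, which holds latent TGF-beta in the matrix, was at -0.55 (adjusted p = 0.286).

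Cxxc5, a CpG-binding zinc-finger protein that also restrains Wnt signalling, was the weakest call among the genes that rose. Its level was 6.0, 5.86 and 6.04 on DZNep and 6.76, 6.65 and 6.59 with glucose added, without overlap. The rise was 0.70 (SE 0.110, adjusted p = 0.0482), and it passed in 7 of 22 alternatives. In untreated cells it lay at 6.87, 6.93 and 7.29 and in high glucose at 7.04, 6.80 and 6.97, groups that overlap (change -0.091, adjusted p = 0.692). The difference between the glucose effects was 0.79 (adjusted p = 0.0884). Each array with both agents lay below each control array.

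Among the genes that fell, Hba-a1, an alpha-globin chain of haemoglobin known mainly from red cell precursors, had the smallest adjusted p. It lay at 9.31, 9.03 and 9.05 on DZNep and at 8.20, 8.46 and 8.46 with glucose added. It fell by 0.76 on the log2 scale (SE 0.096, adjusted p = 0.0150), in 17 of 22 alternatives. The untreated cells had 6.47, 6.60 and 6.54 and the high glucose cells 6.80, 6.91 and 6.77, so that all arrays with DZNep lay far above all arrays without it. The glucose effect without the drug was 0.29 (adjusted p = 0.145), and the difference between the effects passed at -1.05 (adjusted p = 0.0315). Hba-a2, a near-identical gene, may share this probe. The call was lost without DZNep replicate 1 and without replicate 1 or 3 of high glucose plus DZNep, with an adjusted p of at most 0.0699 among the fits that left out 1 array.

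Matn4 encodes matrilin-4, an adaptor protein of the extracellular matrix. Its level was 7.50, 7.48 and 7.31 on DZNep and 6.98, 6.88 and 7.0 with glucose added. It fell by 0.48 (SE 0.073, adjusted p = 0.0468), and the arrays with both agents still lay above the untreated cells at 6.40, 6.50 and 6.38. Without DZNep high glucose gave 6.73, 6.76 and 6.63, a change of 0.28 (adjusted p = 0.0965), and the difference between the effects passed at -0.75 (adjusted p = 0.0315). Ms4a10, a four-span membrane protein, was at 8.03, 7.78 and 7.82 on DZNep and 7.27, 7.20 and 7.26 with glucose, without overlap. It fell by 0.63 (SE 0.091, adjusted p = 0.0307) and changed by 0.066 without the drug, where the control lay at 6.75, 6.89 and 6.63. Matn4 passed in 5 and Ms4a10 in 12 of 22 alternatives.

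For Hba-a1, Matn4 and Ms4a10 the DZNep arrays lay above the control by 2.59, 1.00 and 1.12, and the Cxxc5 difference from it was -1.06. The changes of these 4 genes with high glucose under DZNep were -0.76, -0.48, -0.63 and 0.70. The other genes that passed went both ways. Inmt, Aqp1 and Cdh26 differed from the control by 0.62, 0.096 and -0.22 on DZNep, the same direction as their glucose change. Tgfbi and Ctsw, with fitted differences of -1.76 and 0.14, went against theirs. The comparison of DZNep with control shares the DZNep arrays with the comparison described here. Noise in those arrays moves the values of a gene in opposite directions, so they stand side by side only.

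Cdh26, a cadherin of epithelial cells, had the largest fall of the 4 genes that were detected in both groups. It lay at 7.54, 7.43 and 7.33 on DZNep and at 6.41, 6.72 and 6.72 with glucose added, a fall of 0.82 on the log2 scale (SE 0.127, adjusted p = 0.0468). The other 2 groups were close to DZNep alone, at 7.88, 7.71 and 7.38 in the control and 7.57, 7.75 and 7.60 in high glucose. Its other detected probe changed by 0.0053, so the call does not hold at every probe, and it passed in 5 of 22 alternatives. Ctsw, or cathepsin W, is a protease known from cytotoxic lymphocytes. Its signal was near the detection limit at 6.05, 5.83 and 5.84 on DZNep and not well above background on any array with glucose added, where it read 5.19, 5.41 and 5.06. It was at least 1.35-fold lower with glucose (adjusted p = 0.0285), in 12 of 18 alternatives, and entered the comparison only through the group in which it was high, as did 49 genes in all. Leaving out DZNep replicate 1, high glucose replicate 2 or any 1 array of high glucose plus DZNep ended the calls of Cxxc5, Cdh26, Matn4 and Ms4a10, and with 1 array left out their adjusted p reached 0.217, 0.207, 0.237 and 0.175. Ctsw lost its call without replicate 1 or 3 of high glucose plus DZNep, or without high glucose replicate 2, with an adjusted p of at most 0.168, and it could not be tested without any 1 of the DZNep arrays.

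Markers of other cell types were read beside these genes. Of 14 leukocyte markers 3 were measured, Cd14, Csf1r and Fcer1g, and Ptprc, Cd68, Adgre1 and Cd3e were not among the genes kept. Their summed level, on the linear scale, was 1606 to 1809 on DZNep and 2175 to 2249 with glucose added. Without Cd14, a bacterial lipid receptor that changed by 0.43 (adjusted p = 0.103), the sums were 198.8 to 227.2 and 179 to 209.4. The sums without Cd14 overlapped between the groups but rest on 2 genes only, Csf1r and Fcer1g. The part of leukocyte markers in the Ctsw result was not tested. Of 10 tubular markers measured Aqp1 alone passed. The list's median change was 0.025 against -0.018 over all genes. Of its members 3, Aqp1 among them, stood apart higher and 2 lower, beside 7.67% and 11.6% of all genes. A sum on the linear scale weighs bright probes most. The sum of the other 9 was 12890 to 15110 on DZNep and 16380 to 17540 with glucose, without overlap, while Umod, Slc34a1 and Aqp2 were not among the genes kept. Cdh16 (kidney cadherin) changed by 0.40 (adjusted p = 0.103), Lrp2 (megalin) by 0.30 and Cdh1 (E-cadherin) by -0.49, none of which passed. The part of these markers in the Aqp1 result was not tested. In bulk RNA, fewer cells of a type and less RNA per cell cannot be told apart. Sums of podocyte genes (55480 to 58900 against 55850 to 57520), of mesangial and smooth muscle markers (60560 to 64080 against 60330 to 63790) and of endothelial markers (994.7 to 1121 against 1006 to 1121) overlapped, and those of parietal epithelial markers (10640 to 11320 against 11300 to 11840) overlapped at their edge.

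Several genes with a response to glucose on the arrays without DZNep did not pass under it. Slco4a1, a transporter of organic anions and thyroid hormone, lay at 6.78, 7.42 and 6.82 on DZNep and at 8.21, 8.01 and 8.12 with glucose added. Its groups did not overlap, but DZNep replicate 2 stood above the other two and the change of 1.11 had an SE of 0.187 (adjusted p = 0.0689). Without the drug it rose by 1.59 (adjusted p = 0.00534), from 7.63, 7.44 and 7.45 to 9.50, 8.83 and 8.96. Prss35, a secreted protein of the serine protease family, was not well above background on DZNep (4.98, 5.06 and 4.76) and was at 6.30, 5.98 and 5.72 with glucose, at least 1.48-fold higher (adjusted p = 0.169). Prss35 was kept only through the group in which it was high. Without DZNep it was at least 3.57-fold higher (adjusted p = 0.00534), with high glucose replicate 1 far above the others at 8.01 against 6.97 and 6.78. Fgf10, a growth factor of epithelial budding, was at 8.78, 8.94 and 8.84 on DZNep and 9.17, 9.17 and 9.11 with glucose. Its change was 0.30 (adjusted p = 0.188) against 0.67 (adjusted p = 0.00497) without the drug. The other Fgf10 probe gave 0.41 under DZNep (adjusted p = 0.162 over probes) and 0.71 without it. In limma's test of the difference between the glucose effects Slco4a1, Prss35 and Fgf10 did not pass (adjusted p = 0.380, 0.188 and 0.135).

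**Figure D2:**
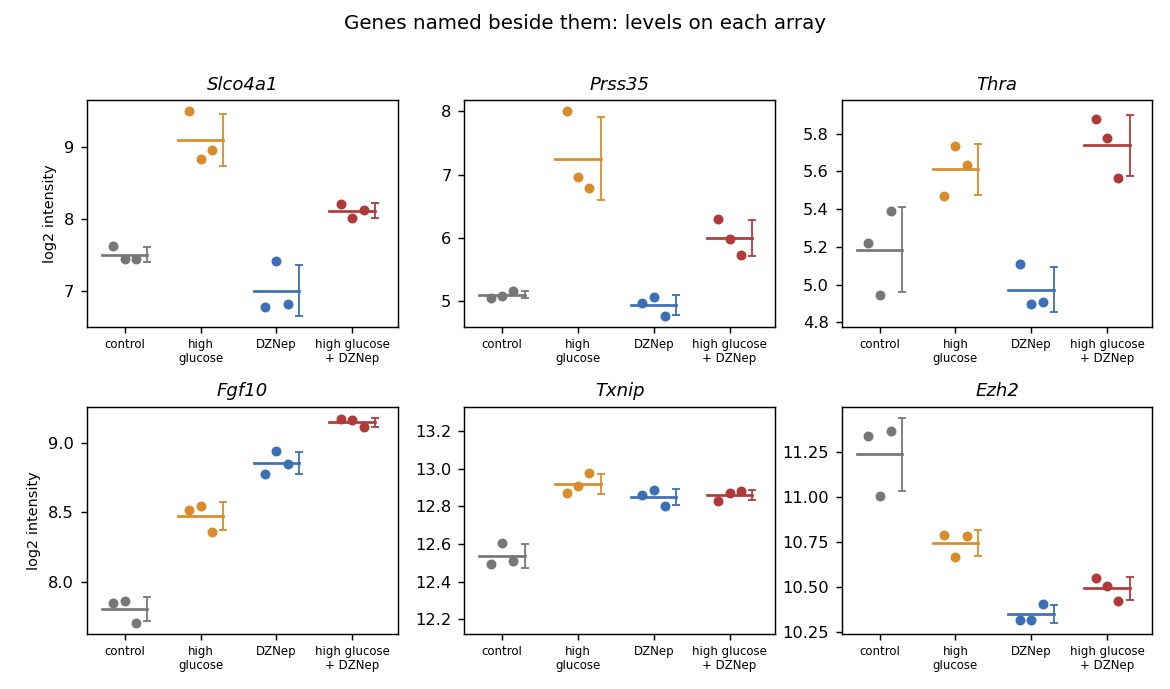
Log2 intensity of Slco4a1, Prss35, Thra, Fgf10, Txnip and Ezh2 on each array. Points are arrays, the line is the mean and the bar the SD (n = 3). Slco4a1 and Prss35 are higher with glucose on both sides, while Txnip is lowest in the control, with the arrays of the other 3 groups between 12.80 and 12.97.

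Thra, a thyroid hormone receptor gene, was below background on DZNep at 5.11, 4.90 and 4.91 and was at 5.88, 5.78 and 5.56 with glucose added. It was at least 1.24-fold higher (adjusted p = 0.0544). Tent5b (a poly(A) polymerase family member, 0.58) and Tatdn2 (of the TatD nuclease family, 0.49) had an adjusted p of 0.0709 each. On the lower side Radil, an effector of the adhesion GTPase Rap, was not well above background with glucose added and was at least 1.17-fold lower there (adjusted p = 0.0629). Thra and Radil were kept only through the group in which they were high. Tnfrsf18, a TNF receptor of T cells, was at -0.56 and Abat, which breaks down GABA, at -0.41 (adjusted p = 0.0709 each). These 6 genes were picked by smallest p among genes whose groups did not overlap, so their lack of overlap was set in advance. The other probe of Tnfrsf18 gave -0.62, and that of Abat -0.017.

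Txnip was compared on its own, as the textbook reporter of glucose sensing. It lay at 12.86, 12.89 and 12.80 on DZNep and at 12.83, 12.87 and 12.88 with glucose added, so the groups overlapped. The change was 0.0095 (SE 0.061, 95% interval -0.12 to 0.14, adjusted p = 0.970). Without the drug Txnip rose by 0.38 (95% interval 0.25 to 0.51, adjusted p = 0.0367), from 12.49, 12.61 and 12.51 to 12.87, 12.91 and 12.97. That call held in 9 of 21 alternatives, and its adjusted p reached 0.134 when 1 array was left out. The difference between the glucose effects was -0.37 (95% interval -0.56 to -0.18) and did not pass after adjustment (adjusted p = 0.0978). On DZNep alone the level was already 0.31 above the control. The other Txnip probe gave 0.20 under DZNep (unadjusted p = 0.0207, adjusted p = 0.430) and 0.40 without it, with a difference of -0.20, so the probes disagreed under DZNep.

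Other targets of the sugar-sensing factors did not pass either. Of 12 measured MondoA and ChREBP targets 0 passed in limma, 0 were higher and 2 were lower at an unadjusted p under 0.05 (3.85% and 6.51% of all genes were), and the median change was -0.011. Arrdc4, the arrestin closest to Txnip, was at -0.17 (adjusted p = 0.587). Lipogenic genes lay near 0, with Acly at -0.046, Scd1 at 0.080, Me1 at 0.056 and Elovl6 at 0.23. Klf10, a zinc-finger repressor, read 6.01, 5.49 and 5.59 on DZNep and 5.29, 4.74 and 5.16 with glucose, where it was not well above background, so that it was at least 1.17-fold lower (adjusted p = 0.218). Klf10 was kept only through the group in which it was high. Bhlhe40, a clock-linked repressor, was at -0.45 (adjusted p = 0.150). Akr1b3, the aldose reductase gene, was not among the genes kept. Of 22 genes of glycolysis and glucose transport and 13 of the polyol, hexosamine and pentose phosphate routes 0 passed, with medians of -0.025 and -0.019. Their lowest p were for Pdk1, which brakes pyruvate entry to the mitochondrion, at -0.37 (adjusted p = 0.359), and Pgls, of the pentose phosphate route, at -0.25 (adjusted p = 0.368). Other probes of Pgls gave 0.41 and -0.054, so its probes disagreed. The glycolysis median was 0.033 with arrays centred on medians, where the median of all genes was 0.037.

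All 7 measured members of the osmotic list had values above 0 under DZNep, from 0.12 to 1.05. Of these, 1 passed (Aqp1), 4 stood apart higher and 0 lower, beside 7.67% of all genes apart higher and 11.6% apart lower. The list's median was 0.17 against -0.018 over all genes, and it was 0.12 to 0.21 in the 22 alternatives. Members other than Aqp1 were modest: Slc38a2, an amino acid transporter, was at 0.24 (adjusted p = 0.267), Sgk1, a salt-regulated kinase, at 0.17 (adjusted p = 0.488), Sdc4, a cell-surface proteoglycan, at 0.16 (adjusted p = 0.368) and Slc6a6, the taurine transporter, at 0.12 (adjusted p = 0.538). Nfat5 itself was at 0.14 (adjusted p = 0.677). Without DZNep 1 of the 7 passed, again Aqp1, and the median was 0.16. There 6 stood apart higher and 0 lower, beside 13.2% and 8.26% of all genes, so the pattern was not particular to the arrays with DZNep. The list, which holds Aqp1, was chosen with earlier results of these data known. Slc5a3, the inositol transporter, was not among the genes kept.

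EZH2 and the Polycomb complexes are the route by which the drug is usually studied. Ezh2 lay at 10.32, 10.32 and 10.40 on DZNep and at 10.55, 10.51 and 10.42 with glucose added, a change of 0.14 (95% interval -0.061 to 0.35, adjusted p = 0.621). Without the drug its mean was 11.24 ± 0.20 (SD, n = 3) in the control and 10.74 ± 0.070 in high glucose, a change of -0.49 (adjusted p = 0.0585). The glucose effects differed by 0.64 (adjusted p = 0.0884), and by 0.10 at the other Ezh2 probe. The partner subunits Suz12 and Eed were at 0.052 and -0.16 under DZNep, and Ezh1 at 0.11. The other Eed probe gave -0.29 (adjusted p = 0.358 over probes). Of 27 measured subunits of both Polycomb complexes 0 passed, 0 were higher and 1 was lower at an unadjusted p under 0.05, against 3.85% and 6.51% of all genes, and the median was 0.048. Ahcy, whose product DZNep inhibits, was at -0.12 (adjusted p = 0.743), and 0 of 15 genes of the methionine cycle and polyamines passed.

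**Figure D3:**
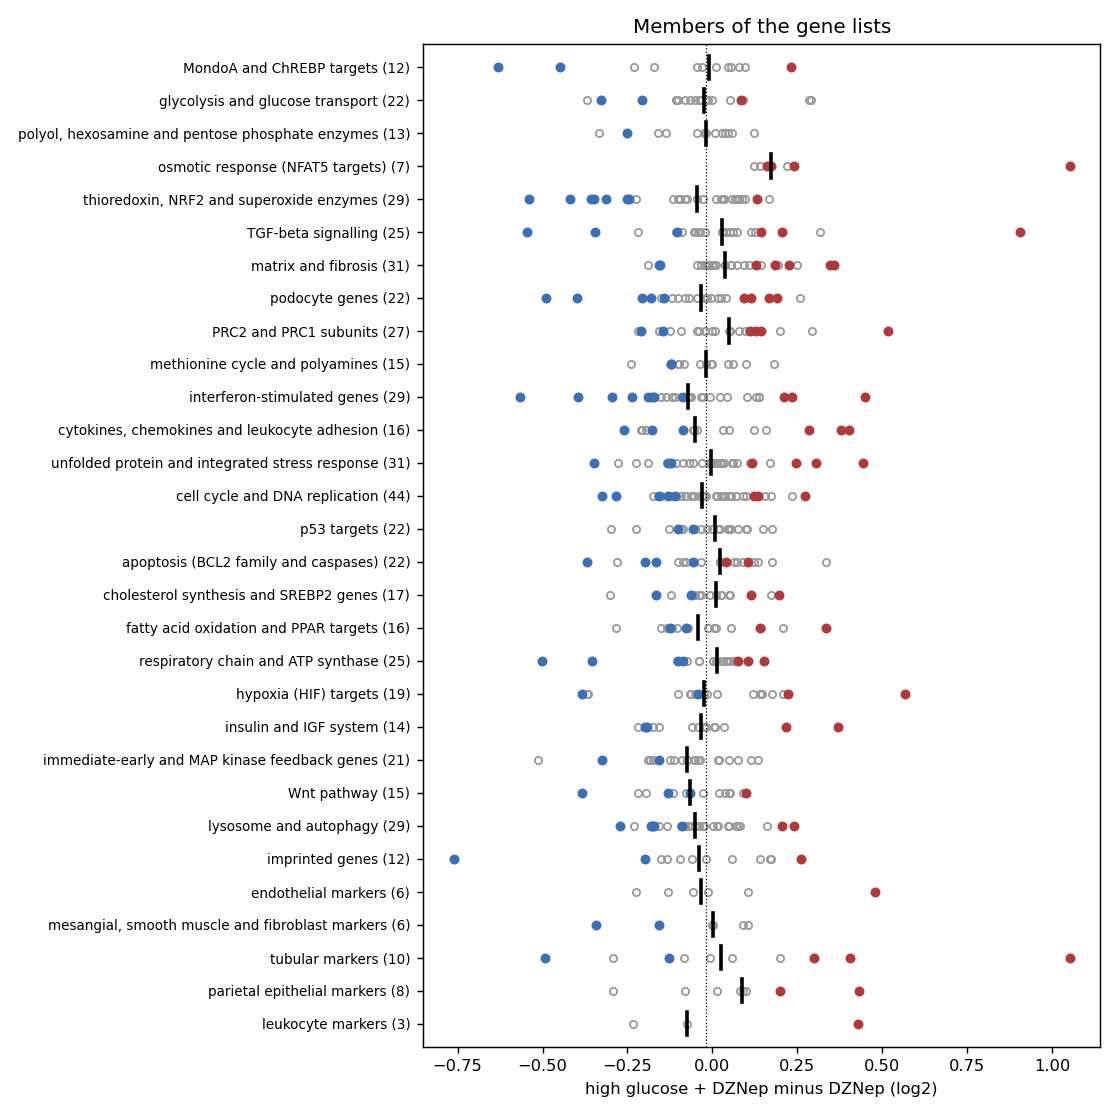
Change with high glucose under DZNep (log2) of each measured member of 30 gene lists, with the number measured in brackets. Filled red and blue points are genes whose groups do not overlap (higher and lower), open points overlap, black bars are list medians and the dotted line is the median of all 9741 genes. Klf10, Tgfbi, Lmx1b, Axin2 and Slc22a18 are drawn at fitted values although they were below background in 1 group. The osmotic list is the one whose members all lie right of 0, with Aqp1 at 1.05.

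The podocyte and matrix lists held no member that passed. Of 22 measured podocyte genes 0 passed, with 1 higher and 3 lower at an unadjusted p under 0.05, beside 3.85% and 6.51% of all genes. Nphs1 was at 0.17 (adjusted p = 0.380), Synpo at -0.14 (adjusted p = 0.603) and Efnb1, an ephrin of the slit diaphragm, at -0.21 (adjusted p = 0.286). Lmx1b, a transcription factor of podocyte identity, was not well above background with glucose added and was at least 1.10-fold lower there (adjusted p = 0.162). It was kept only through the group in which it was high. Of 31 matrix and fibrosis genes 0 passed, 5 stood apart higher and 2 lower, beside 7.67% and 11.6% of all genes, with a median of 0.036. The collagen crosslinking enzyme Lox was at 0.35 (adjusted p = 0.147), the basement membrane linker Nid1 at 0.36 (adjusted p = 0.267) and Fn1 (fibronectin) at 0.19 (adjusted p = 0.589).

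The stress and defence lists held no member that passed. In the list of thioredoxin, NRF2 and superoxide enzymes 7 of 29 measured genes stood apart lower (11.6% of all genes did) and 1 higher, with a median of -0.045. They included Mt1 (a metallothionein, -0.42, adjusted p = 0.100), Gclc (of glutathione synthesis, -0.54, adjusted p = 0.208), Txnrd1 (-0.36), Slc7a11 (a cystine importer, -0.35) and Nox4 (a hydrogen peroxide source, -0.31). Of 29 interferon-stimulated genes 8 stood apart lower and 3 higher, beside 11.6% and 7.67% of all genes, with a median of -0.070. Mx2, an antiviral GTPase, was at -0.57 (adjusted p = 0.299), while Ifit3, an RNA-binding antiviral protein, was at 0.45 (adjusted p = 0.167). Of 16 cytokine, chemokine and adhesion genes 3 stood apart higher and 3 lower, and among them Cxcl1 was at 0.40 (adjusted p = 0.235) and Ccl7 at 0.38 (adjusted p = 0.359). Among 31 unfolded protein and integrated stress response genes 4 stood apart higher and 3 lower, with Calr (a chaperone of the endoplasmic reticulum) at 0.44 (adjusted p = 0.375).

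Growth and metabolism lists likewise held 0 genes that passed. They were 44 cell cycle genes (median -0.029), 22 p53 targets (0.0080), 22 apoptosis genes (0.022), 17 genes of cholesterol synthesis (0.0095), 16 of fatty acid oxidation (-0.043), 25 of the respiratory chain (0.012), 19 hypoxia targets (-0.023), 14 of the insulin and IGF system (-0.033), 21 immediate-early genes (-0.075), 15 of the Wnt pathway (-0.067), 29 of lysosome and autophagy (-0.051) and 12 imprinted genes (-0.040). With the arrays centred on their medians the p53 median was 0.054, and the median of all genes moved to 0.037. The cyclin genes Ccnd1 and Ccnd2 were at -0.28 and -0.32 (adjusted p = 0.368 and 0.351). Slc22a18, an imprinted transporter, read 5.56, 6.10 and 5.49 on DZNep and was not well above background with glucose added, at least 1.18-fold lower (adjusted p = 0.160). It entered the comparison only through the group in which it was high.

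The glucose responses with and without DZNep were then set beside each other, in comparisons that share no array. Without DZNep 30 genes passed (0.308%), 21 higher and 9 lower, and 3 of these (Aqp1, Inmt and Tgfbi) also passed under DZNep, which is 33.3% of the 9 and 10% of the 30. Of the 21 genes higher without DZNep, 19 had values above 0 under it and 13 stood apart higher, beside 7.67% of all genes, while 0 stood apart lower, beside 11.6%. Their median was 0.50 without the drug, the values by which they were chosen, and 0.23 under it. Beside the genes already described these 13, named here after their values were seen, held Prkar2b, a regulatory subunit of protein kinase A (0.34), Fxr2, of the fragile X family (0.29), H1f2, a linker histone (0.27), Fsd1 (0.24), Rhpn2 (0.23), Frat2, of Wnt signalling (0.21), and Ergic1 (0.10), none of which passed under DZNep. Of the 9 genes lower without DZNep, 8 had values above 0 under it, 3 stood apart higher and 0 lower. Over all genes the groups without DZNep stood apart for 21.5%, 13.2% higher and 8.26% lower. Without control replicate 3 the count of 30 became 9, with 7 higher and 2 lower, and it was 6 to 74 over the fits that left out 1 array.

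**Figure D4:**
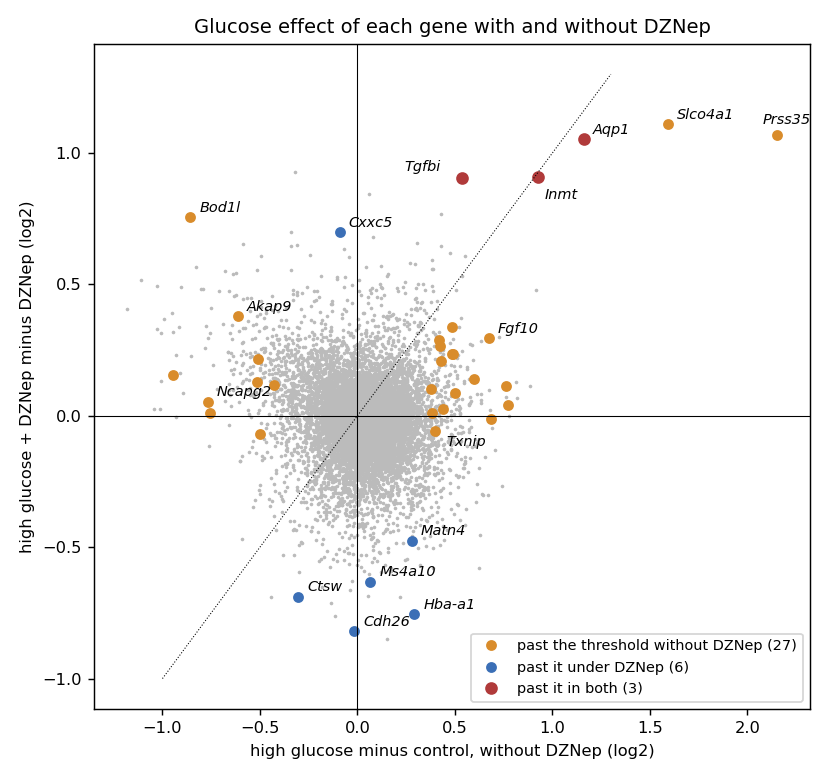
Glucose effect of each of 9741 genes without DZNep (horizontal, log2) and under DZNep (vertical, log2). Colours mark genes past the threshold in 1 or both comparisons and the dotted line is equality; Aqp1 and Inmt lie beside it, and Txnip lies on the horizontal axis.

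Across all 9741 genes the glucose effects with and without the drug had a Pearson r of -0.109. This is a description across genes, which are not independent replicates, and all arrays were normalized together. Groups stood apart in the same direction in both comparisons for 202 genes and in opposite directions for 259. Under DZNep 7.67% of all genes stood apart higher and 11.6% lower, and without it 13.2% higher and 8.26% lower. These shares by themselves make opposite directions the more frequent. Whether the counts differ from what the shares would give was not tested.

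The difference between the glucose effects was tested for every gene, and 5 passed (0.0513%), 3 with a higher and 2 with a lower effect under DZNep, with 1608 at an unadjusted p under 0.05. The higher ones were Bod1l, which protects replication forks, Akap9, a scaffold of the centrosome and Golgi, and Ncapg2, a subunit of condensin II. Bod1l lay at 6.86, 6.87 and 7.03 on DZNep and at 7.67, 7.57 and 7.79 with glucose added, apart but not past the threshold (change 0.76, adjusted p = 0.101). In the control it was at 7.68, 7.62 and 8.16 and in high glucose at 7.25, 6.81 and 6.84, a fall of 0.86 (adjusted p = 0.0428). Control replicate 3 was the highest of these arrays. Akap9 was at 10.52, 10.85 and 10.79 on DZNep and 11.08, 11.12 and 11.09 with glucose, against 10.97, 10.93 and 11.18 in the control and 10.39, 10.36 and 10.50 in high glucose. Ncapg2 overlapped between the groups with DZNep (change 0.054) and fell by 0.77 with high glucose without it (adjusted p = 0.00497). Without control replicate 3 the test of the difference passed for 0 genes, as it did without DZNep replicate 1, without any array of high glucose plus DZNep, and without high glucose replicate 2 or 3.

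**Figure D5:**
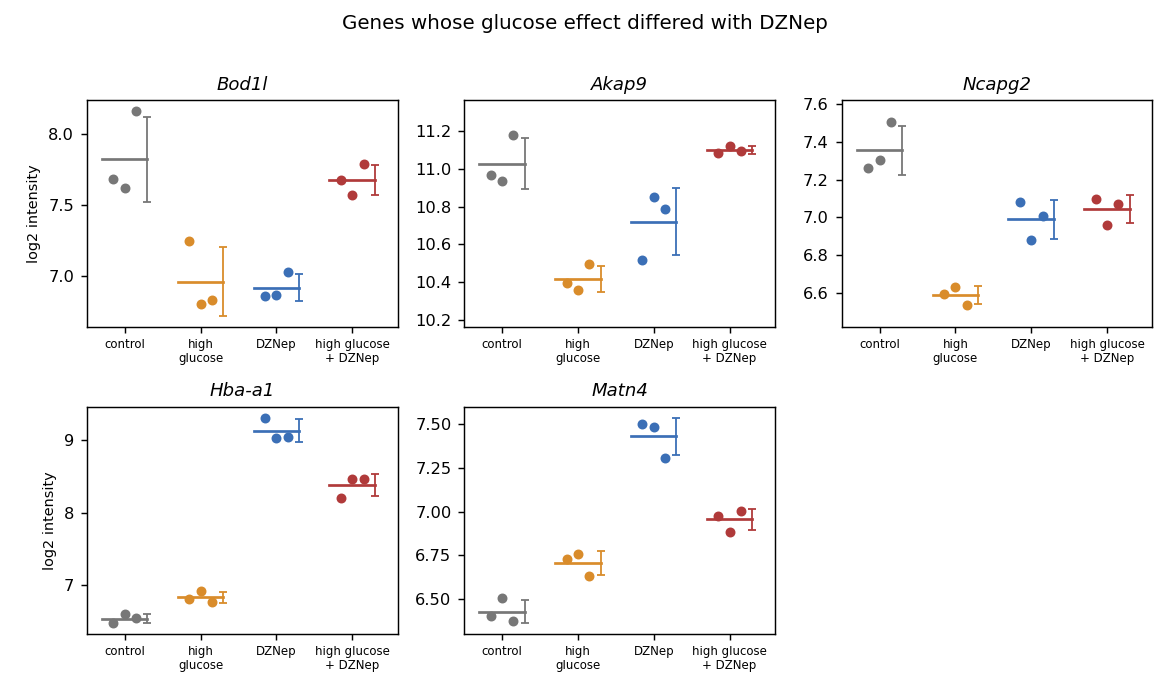
Log2 intensity of the 5 genes whose glucose effect differed with DZNep, on each array. Points are arrays, the line is the mean and the bar the SD (n = 3). Bod1l and Akap9 are lower with glucose in the untreated pair of groups and higher with it in the DZNep pair, and Hba-a1 and Matn4 run the other way.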

How the data were processed

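Total RNA of 12 cultured podocyte samples was amplified to biotin cRNA for Illumina mouse arrays, as the labels' protocols say. The authors deposited linear probe intensity values without normalization, per the file headers, with a detection p-value beside each. GenomeStudio is named in the submitters' processing notes without a version. A deposited table of processed intensity values rescaled and shifted the raw signal linearly (factor 0.832 to 1.12) with a mean of 568.254 on every array and 32.6% to 36% of values below 0. The purpose of the shift is unknown, and it served only as an alternative.

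The neqc function of limma 3.58.1 (R 4.3.3) corrected the background by normexp, using the detection p-values, added an offset of 16, applied quantile normalization and took log2. The platform annotation gave 34885 of 45281 probes 1 symbol, 18 several and 10378 none, and 34807 matched RefSeq (GRCm38.p6) by gene ID. The array files name no build, so that table gave only names, gene order and the promoters. Probes detected on at least 3 of the 6 arrays with DZNep were kept (17903, of which 15255 had 1 symbol), and the brightest over those arrays stood for each of 9741 genes. Other probes were read from a fit of all kept probes. A linear model of 4 group means over 12 arrays was fitted with lmFit and eBayes (11.46 degrees of freedom with the prior), and p-values were adjusted by Benjamini-Hochberg over all genes within each comparison. Where a group had 0 detected arrays, a bound ("at least") was formed from the brighter group's mean against the mean, per dim array, of either its own signal or, where brighter, that of the dimmest detected probe. Bounds were not tested, and an adjusted p beside a bound is that of the fitted change. Promoters of 7927 of the 9741 genes were in the RefSeq table. The scripts, run with Python 3.11.15, were tested on simulated data.

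Groups and replicate numbers came from the labels. Same-numbered arrays of the groups with DZNep did not deviate together (correlations -0.16, 0.00039 and -0.070), so no pairing was used. The gene set, the 30 lists and the genes always named were chosen with earlier results of these data known. The rule named 21 genes always, those past the threshold by size, those of smallest p to 8 in a direction, those whose glucose effect differed, and up to 4 members of a list that passed or 2 of smallest p. Genes named by size or to make up 8 in a direction also had to have groups that did not overlap. Other list members, neighbours and genes of the overlap were named after their values were seen, as was the choice of the Aqp1 promoter. Alternatives were other filters, background correction, scaling, the authors' values, probe averaging, a replicate block, array weights, the arrays with DZNep alone and each array left out.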

Additional observations from a re-analysis of the deposited data

Results flagged for a closer look

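The effect of high glucose differed with DZNep for 5 genes by the test of the difference itself in limma (adjusted p = 0.0315 for each). It was higher under DZNep by 1.61 on the log2 scale for Bod1l (0.76 under DZNep and -0.86 without), by 0.99 for Akap9 (0.38 and -0.61) and by 0.82 for Ncapg2 (0.054 and -0.77). It was lower by -1.05 for Hba-a1 (-0.76 and 0.29) and by -0.75 for Matn4 (-0.48 and 0.28). The other 2 probes of Akap9 gave differences of 1.08 and 1.09 (adjusted p = 0.0592 and 0.131 over probes) and the other probe of Ncapg2 gave 0.21. In 21 alternatives the difference passed 10 times for Bod1l and Hba-a1, 9 times for Akap9, 8 times for Matn4 and 7 times for Ncapg2, and without control replicate 3 it passed for none of them.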

How the results depend on the processing

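The count of genes past the threshold for high glucose under DZNep, 9 as reported, was 5 with every probe kept, 21 when the background was left in, 39 with array weights and 0 with the 6 arrays with DZNep alone, and 1 to 22 when 1 array was left out. Without DZNep the count of 30 became 7 with every probe kept, 52 with a stricter filter, 312 with the background left in, 5 with arrays centred on medians, 9 with the authors' processed values, 47 with array weights and 6 to 74 without 1 array. The count of 5 for the difference became 0 with every probe kept, 12 with the stricter filter, 163 with the background left in, 0 with the authors' values, 31 with array weights and 0 to 40 without 1 array. With the replicate block the 3 counts were 2, 9 and 0. No pairing by replicate number was seen, since 0 of the 6 arrays with DZNep correlated best with its own number. With 3 arrays a group this check cannot show that the arrays were unpaired. In all 22 alternatives, or all those in which they could be tested, the 9 genes kept their direction. The cause of these changes was not tested. Leaving out an array also leaves fewer samples, and signals near background limit Tgfbi and Ctsw to bounds.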
